A study of Mus musculus with 15 samples.

Results

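The oxidative phosphorylation genes of microglia were examined, taken as every protein-coding gene whose mouse symbol begins with Nduf followed by a, b, c, s or v, with Uqcr, with Cox and a digit from 4 to 8, or with Atp5, together with Sdha to Sdhd and Cyc1. Of 97 such genes among the 36528 in the tables, 90 had at least 30 reads summed over the 15 samples and were kept. They comprised 38 genes of complex I, 4 of complex II, 9 of complex III, 13 of complex IV, 17 of complex V, and 9 assembly or supercomplex factors that the symbol pattern also takes (Ndufaf1 to Ndufaf8 and Cox7a2l). The members just inside the minimum were Atp5l with 63 reads and Ndufs5 with 70. Just outside it lay Cox7a1, Cox8b and Ndufa4l2 with 16 reads each.

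RNA was sequenced from microglia that were sorted from the cortex by a green fluorescent protein reported from the Cx3cr1 locus, a reporter carried by every sample. The PS2APP mice (9 samples, 4 at 14 months and 5 at 15 months) carry transgenes of mutant human presenilin 2 and amyloid precursor protein and serve as a model of amyloid deposition. The non-transgenic (non-Tg) wild type mice gave 6 samples, 2 at 14 months and 4 at 15 months. No label ties a sample to its own mouse, so p-values here describe sample-to-sample spread, which may be technical in part.

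Oxidative phosphorylation takes place in the inner mitochondrial membrane. Complexes I and II pass electrons to ubiquinone, complex III passes them on to cytochrome c and complex IV hands them to oxygen, while complexes I, III and IV pump protons whose return drives ATP synthesis by complex V. Most subunits are encoded in the nucleus, and complex IV has several that exist as alternative isoforms used by different tissues. In microglia the balance of oxidative phosphorylation and glycolysis is known to shift with activation.

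The results turn on a pair of such isoforms of subunit VIa of complex IV, which sits on the surface of the enzyme. Cox6a2 is the isoform of heart and skeletal muscle and Cox6a1 the isoform of liver and most other tissues. Their coding sequences, bases 1 to 294 of Cox6a2 and 40 to 339 of Cox6a1, are shown 5′ to 3′ from the GENCODE M21 annotation of GRCm38, with capitals at the bases that differ or have no partner in the alignment, because the comparison rests on the reads of the 2 genes being told apart:
Cox6a2: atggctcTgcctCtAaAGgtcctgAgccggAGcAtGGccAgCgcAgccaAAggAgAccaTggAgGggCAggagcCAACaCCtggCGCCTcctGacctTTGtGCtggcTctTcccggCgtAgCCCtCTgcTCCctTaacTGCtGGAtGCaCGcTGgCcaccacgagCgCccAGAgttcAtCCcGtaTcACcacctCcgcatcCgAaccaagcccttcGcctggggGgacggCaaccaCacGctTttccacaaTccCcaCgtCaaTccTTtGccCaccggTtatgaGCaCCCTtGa
Cox6a1: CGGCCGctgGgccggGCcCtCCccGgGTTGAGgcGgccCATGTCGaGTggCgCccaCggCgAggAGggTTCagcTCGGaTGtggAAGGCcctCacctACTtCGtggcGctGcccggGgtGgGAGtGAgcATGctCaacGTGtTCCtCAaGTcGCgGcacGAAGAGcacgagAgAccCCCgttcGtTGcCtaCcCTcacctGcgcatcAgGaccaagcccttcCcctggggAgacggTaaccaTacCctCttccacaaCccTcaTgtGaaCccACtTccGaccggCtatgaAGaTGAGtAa
The Cox6a2 sequence has 294 bases and the Cox6a1 sequence 339, of which 294 could be aligned and 190 (64.6%) were identical. The longest run shared by their transcripts was 12 bases. Of the 50-base windows of the Cox6a2 transcripts, 3.33% also occurred in 1 other gene, not a pseudogene. For Cox6a1 12.3% also occurred in 1 other gene, a pseudogene. With a longest shared run of 12 bases, none of these windows was shared between the 2 isoforms.

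The libraries held between 3664742 and 8455237 reads assigned to genes (median 5867848). The 90 members together took 0.215% to 0.345% of the reads in PS2APP samples (median 0.266%) and 0.217% to 0.366% in non-Tg samples (median 0.286%), so the ranges overlapped. The 10 microglia markers examined were all measured and none was called different between the genotypes, although 9 had an estimate below 0 (median log2 fold change -0.22), 3 of the 10 at an unadjusted edgeR p under 0.05. Their summed CPM had a median of 30208 in PS2APP samples and 35777 in non-Tg samples, with overlapping ranges. Summed CPM (read counts scaled to library size) of 12 neuron markers lay between 64.6 and 230 in PS2APP samples and between 241 and 462 in non-Tg samples, with no overlap. Of the 9 neuron markers tested, Slc17a7 and Gad2 were called lower in PS2APP microglia. In 4 libraries (PS2APP samples 1 and 4, non-Tg samples 9 and 13) immediate early genes were high, and in 3 (PS2APP sample 14, non-Tg samples 12 and 13) Xist was low. Xist had 16.7, 20.8 and 47.0 CPM in these 3, in that order, and 3676 to 7216 CPM in all others. The main model had no term for either.

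Of the 90 members, 85 had enough reads to be tested, and a single one differed between the genotypes. Cox6a2 was called higher in PS2APP microglia and no member was called lower, with calls made by edgeR's quasi-likelihood test at an adjusted p under 0.05 over 13994 genes. Across all genes tested 1.18% were called in either direction, 0.958% higher and 0.222% lower, so 1 call among 85 members was at the level of the background. At an unadjusted p under 0.05 there were 5 members (Cox6a2, Uqcr10, Cox7a2, Ndufa4 and Atp5pb), against 11.7% of all genes. The log2 fold change, PS2APP over non-Tg, was below 0 for 45 members (52.9%), against 52.7% of all genes, and its median was -0.01, against -0.02 for all genes. Other than Cox6a2, the estimates lay between -0.81 and 0.68, with 79 of the 84 under a 1.5-fold change in either direction. The 95% interval lay inside a 2-fold change in both directions for 60 of the 85 members, or 70.6%, against 56.5% of all genes.

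**Figure D1:**
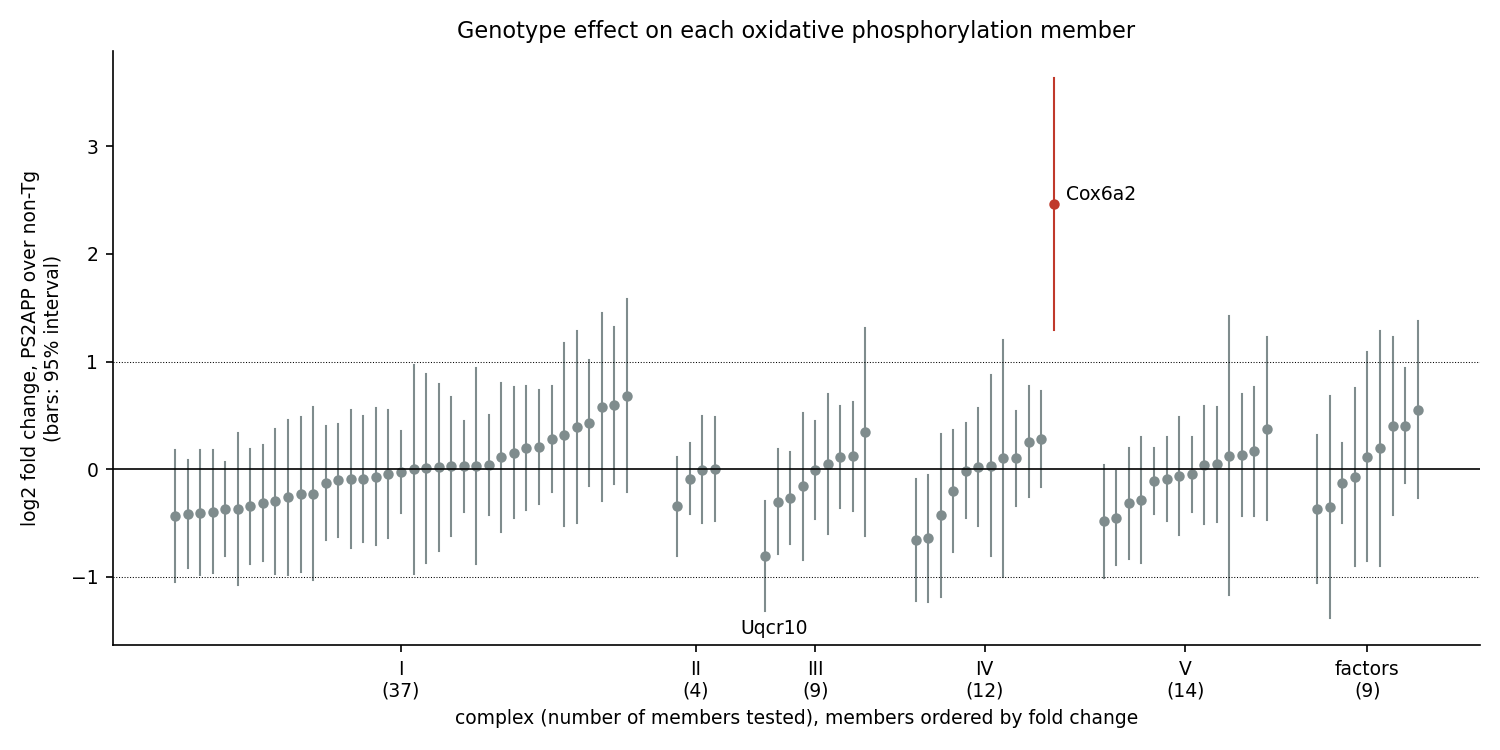
Log2 fold change (PS2APP over non-Tg) of each of the 85 tested members with its 95% interval, from edgeR, grouped by complex and ordered by size within it. Dotted lines mark a 2-fold change; Cox6a2 at 2.47, in red, was the single member called, and Uqcr10 at -0.81 had the largest negative estimate.

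Cox6a2 (chromosome 7, 128205435 to 128206366 of GRCm38, minus strand, 3 exons) had 6.13, 12.1, 16.7 and 34.9 CPM in the PS2APP samples of 14 months (samples 3, 4, 6 and 8). It had 11.7, 11.8, 12.1, 11.5 and 5.94 CPM in those of 15 months (samples 1, 7, 10, 14 and 15). In non-Tg microglia it had 0.554 and 2.51 CPM at 14 months (samples 5 and 13) and 3.60, 0.125, 4.77 and 2.32 CPM at 15 months (samples 2, 9, 11 and 12). Every PS2APP sample lay above every non-Tg sample, and PS2APP sample 8 stood well above the rest. Groups that do not overlap were found for Cox6a2 alone among the tested members and for 0.636% of all genes tested. The mean was 13.7 ± 8.63 CPM in PS2APP microglia (SD, n = 9) and 2.31 ± 1.77 CPM in non-Tg microglia (SD, n = 6). The log2 fold change was 2.47 ± 0.56 (SE), a 5.52-fold difference with a 95% interval of 1.30 to 3.64 on the log2 scale, and edgeR's adjusted p was 0.0276. In RNA from a sorted population, more cells with the transcript and more transcript per cell cannot be told apart.

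These levels rested on few reads, 664 in the 9 PS2APP samples together and 82 in the 6 non-Tg samples, with 1 to 23 reads in each non-Tg sample. The call was kept in 11 of 15 fits that left out 1 sample each. It was lost without PS2APP sample 10, and without non-Tg sample 5, 12 or 13, with edgeR adjusted p-values of 0.0580, 0.0709, 0.0518 and 0.0776. It was also lost at 14 months alone (log2 fold change 3.38, adjusted p = 0.0997 with edgeR) and at 15 months alone (1.98, adjusted p = 0.282). At these ages 0.338% and 0.476% of all genes were called. Leaving out the 4 samples with high immediate early genes gave an edgeR adjusted p of 0.106, and leaving out the 3 low in Xist gave 0.182. With the neuron marker score (mean log2 CPM of the list) as a covariate the estimate was 1.77 and the adjusted p 0.9999 in edgeR. That score was at most 3.18 in PS2APP samples and at least 3.25 in non-Tg samples, so it and the genotype cannot be told apart in this fit, which called 13 genes in all, against 165 without the score. The log2 fold change stayed between 1.68 and 3.38 over all 31 alternatives, with adjusted p-values from 2.26e-05 to 0.9999. The value of 1.68 came from limma on log2(nRPKM + 1), nRPKM being the authors' length-scaled unit. The added 1 shrinks differences at low levels, so this value is not a like measure.

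Cox6a1 was not called. It had 42.4 to 93.2 CPM in PS2APP samples (median 62.9) and 31.3 to 79.8 CPM in non-Tg samples (median 52.2), and the groups overlapped. Its mean was 65.8 ± 17.3 CPM in PS2APP microglia and 55.8 ± 17.0 CPM in non-Tg microglia (SD, n = 9 and 6), with a log2 fold change of 0.28 ± 0.22 (SE) and an edgeR adjusted p of 0.669. In nRPKM, the authors' unit scaled to gene length and library size, Cox6a2 made up 13.7% ± 4.91 of the 2 isoforms in PS2APP microglia (SD, n = 9) and 2.95% ± 1.74 in non-Tg microglia (SD, n = 6). The share lay between 8.85% and 24.9% in PS2APP samples and between 0.19% and 4.61% in non-Tg samples, so Cox6a1 remained the main isoform in each. The difference was 10.7 percentage points. An exact two-sided permutation test gave p = 0.0002, the smallest value that its 5005 splits can give, and 0.000999 after Benjamini-Hochberg adjustment over 5 shares. In the 15-month samples alone the difference was 8.72 points (exact permutation p = 0.00794). With Cox6a1 not called, the share follows the Cox6a2 levels, whose groups do not overlap. The p-values of the share are therefore no separate support for the Cox6a2 call. The isoforms were also chosen with earlier results of these data known.

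**Figure D2:**
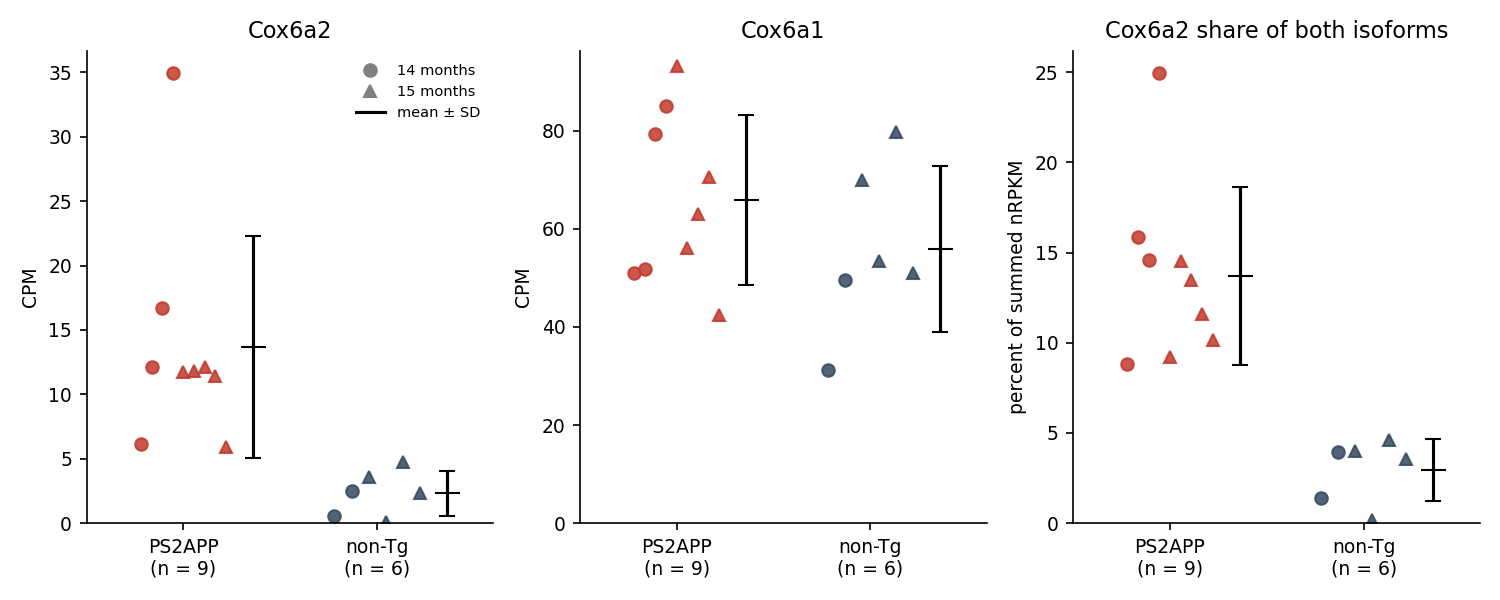
Cox6a2 and Cox6a1 in CPM and the share of Cox6a2 in the summed nRPKM of both, for 9 PS2APP and 6 non-Tg samples; circles are samples of 14 months, triangles of 15 months, and bars the mean ± SD. All PS2APP samples lie above all non-Tg samples in Cox6a2 and in its share, and the groups overlap in Cox6a1.

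Cox6a2 lies beside the genes of the leukocyte integrin alpha chains on chromosome 7, and the neighbours were looked at after its value had been seen. Itgax, which encodes CD11c and lies 54777 bases away, was also called higher in PS2APP microglia, at 157 ± 78.6 CPM against 17.1 ± 5.56 CPM in non-Tg microglia (SD, n = 9 and 6; log2 fold change 3.15 ± 0.30 SE). PS2APP samples 8 and 6 had the highest levels of both genes. The Itgad gene, on the other strand, overlaps Cox6a2 by 70 bases in RefSeq and spans it in GENCODE. Itgad had 238 reads in all and was not called (1.17 ± 0.69, SE, edgeR adjusted p = 0.535). Whether the library kept the strand is not given in the sources used here, so reads from the shared stretch cannot be told apart. The other neighbours tested were not called, with log2 fold changes of -0.09 for Itgam, 0.06 for 9130023H24Rik, -0.35 for Armc5 and 0.61 for Tgfb1i1.

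Because Cox6a2 is named for striated muscle, 9 muscle markers were read beside it. Tnnt2, a heart troponin, had no read in any sample, and Mb, which encodes myoglobin, had 1. Of the 9 markers only 4 had under 30 reads over all samples, so transcripts of the list were not absent. The summed CPM of the list was 0.747 to 29.8 in PS2APP samples and 0.627 to 37.7 in non-Tg samples, so the ranges overlapped. Ttn, the titin gene, was the only marker with enough reads to be tested and was not called (log2 fold change -0.07, edgeR adjusted p = 0.982).

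The other tissue isoforms were close to undetected. Cox6b2, the testis isoform of subunit VIb, had 61 reads in 8 of 9 PS2APP samples and 14 reads in 4 of 6 non-Tg samples, and PS2APP sample 15 was far above the others at 5.53 CPM. Its share of the Cox6b1 and Cox6b2 nRPKM was 2.83% ± 4.46 in PS2APP microglia and 0.848% ± 1.14 in non-Tg microglia (SD, n = 9 and 6), with p = 0.373 in the exact permutation test. The difference was 1.98 percentage points, and 0.53 points without PS2APP sample 15. Under a filter of 30 reads its log2 fold change was 1.95 and edgeR's adjusted p 0.474. Cox7a1, the heart and muscle isoform of subunit VIIa, had 6 reads in PS2APP samples and 10 in non-Tg samples. Cox8b, the muscle isoform of subunit VIII, had 8 reads in each group, and Ndufa4l2, a hypoxia-responsive relative of Ndufa4, had 9 reads in PS2APP samples and 7 in non-Tg samples. Cox4i2, the lung isoform of subunit IV, had 6 reads in PS2APP samples and none in non-Tg samples, while Cox7b2 and Cox8c had none at all. A count of 0 over a group allows up to 3 reads.

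Subunit c of the ATP synthase rotor is made from 3 genes that encode the same mature protein. Atp5g3 gave nearly all of their nRPKM, 96.3% ± 1.75 in PS2APP microglia and 96.4% ± 1.78 in non-Tg microglia (SD, n = 9 and 6; exact permutation p = 0.922). Atp5g1 gave 1.34% ± 0.395 and Atp5g2 2.39% ± 1.77 in PS2APP microglia, against 1.76% ± 0.753 and 1.89% ± 1.52 in non-Tg microglia (exact permutation p = 0.187 for Atp5g1 and 0.584 for Atp5g2). Neither share differed beyond the spread between samples. The Atp5g2 difference of 0.50 points was 0.077 points without PS2APP sample 15 and 0.94 points without non-Tg sample 12.

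Complex I, the NADH dehydrogenase, had no call among 37 members tested, and its median log2 fold change was -0.03. The largest positive estimates were 0.68 ± 0.43 (SE) for Ndufb2, 0.60 ± 0.35 for Ndufb3 and 0.58 ± 0.42 for Ndufa1, all accessory subunits. The largest negative ones were -0.43 ± 0.29 for Ndufa8, -0.42 ± 0.24 for Ndufs4 and -0.40 ± 0.28 for Ndufb9. Every one of these intervals included 0, and the smallest edgeR adjusted p in the complex was 0.521.

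Complex II, the succinate dehydrogenase of the citric acid cycle, had no call among 4 members, and its median was -0.05. Sdha, the flavoprotein that oxidises succinate, had 177 ± 23.9 CPM in PS2APP microglia and 188 ± 49.0 CPM in non-Tg microglia (SD, n = 9 and 6). Its log2 fold change was -0.09 ± 0.16 (SE). The iron-sulfur subunit Sdhb and the membrane anchor Sdhc were at -0.00 ± 0.24 and 0.00 ± 0.23, and the other anchor Sdhd was at -0.34 ± 0.22. All 4 intervals lay inside a 2-fold change.

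Complex III, the cytochrome bc1 complex, had no call among 9 members and a median of -0.01, and held the largest negative estimate. Uqcr10, a small subunit of the complex, had 15.2 to 32.5 CPM in PS2APP samples (median 20.2) and 21.8 to 59.9 CPM in non-Tg samples (median 37.3). All 9 PS2APP samples lay below the non-Tg median, as was also so for the uncalled Uqcrc1, Ndufb9 and Ndufab1. The ranges of Uqcr10 overlapped. Its mean was 22.5 ± 5.46 CPM in PS2APP microglia and 38.9 ± 15.8 CPM in non-Tg microglia (SD, n = 9 and 6), with a log2 fold change of -0.81 ± 0.25 (SE) and an edgeR adjusted p of 0.142. Over the alternatives its estimate stayed between -1.09 and -0.52 and its adjusted p between 0.0523 and 0.9999. The core subunits Uqcrc1 and Uqcrc2 were at -0.30 ± 0.24 and -0.26 ± 0.21, and the Rieske iron-sulfur protein Uqcrfs1 was at 0.11 ± 0.23 (SE). The largest positive estimates were 0.34 ± 0.46 for Uqcrb and 0.12 ± 0.24 for Uqcrq, both small subunits.

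Complex IV, the cytochrome c oxidase, had the single call among 12 members and a median of 0.03. Its largest negative estimates were -0.66 ± 0.27 (SE) for Cox7a2, -0.64 ± 0.28 for Ndufa4 and -0.43 ± 0.36 for Cox7b. Cox7a2, the isoform of subunit VIIa used outside muscle, had 8.80 to 41.3 CPM in PS2APP samples (median 20.9) and 24.03 to 50.4 CPM in non-Tg samples (median 27.2). Its groups overlapped and edgeR's adjusted p was 0.327. Ndufa4, once assigned to complex I and now counted with complex IV, had 13.1 to 47.2 CPM in PS2APP samples (median 30.4) and 27.1 to 91.4 CPM in non-Tg samples (median 42.6), with an adjusted p of 0.371 in edgeR. Non-Tg sample 11 was the highest of all 15 samples for Cox7a2, Ndufa4 and Cox7b. After Cox6a2 and Cox6a1 the largest positive estimate was 0.25 ± 0.25 for Cox6c, and Cox4i1, the largest nuclear subunit, was at 0.10 ± 0.21.

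Complex V, the ATP synthase, had no call among 14 members, and its median was -0.06. Atp5b, the catalytic beta subunit, had 307 ± 85.3 CPM in PS2APP microglia and 324 ± 62.6 CPM in non-Tg microglia (SD, n = 9 and 6), a log2 fold change of -0.09 ± 0.19 (SE). The stalk subunits Atp5j and Atp5pb had the largest negative estimates, -0.49 ± 0.25 with an edgeR adjusted p of 0.469 and -0.45 ± 0.21 with 0.403, followed by Atp5g3 at -0.32 ± 0.25. The largest positive one was 0.38 ± 0.41 for Atp5k, subunit e of the membrane part, followed by Atp5j2 at 0.17 ± 0.29 and Atp5mpl at 0.13 ± 0.27. Among the 9 factors none was called and the median was 0.12, with estimates between -0.37 and 0.55. Cox7a2l, which helps complexes III and IV to associate into supercomplexes, was at 0.40 ± 0.26 with an edgeR adjusted p of 0.577. It had 28.2 to 62.0 CPM in PS2APP samples and 19.3 to 42.4 CPM in non-Tg samples, with overlap. Its log2 fold change was 1.15 at 14 months alone and 0.014 at 15 months alone.

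Members spanned a wide range of levels. Per gene length, the highest mean nRPKM over all 15 samples was that of Atp5b at 44.5, followed by Cox4i1 at 31.5, Cox6a1 at 30.9 and Atp5g3 at 27.5. In complex I the highest were Ndufc2 at 22.3 and Ndufa3 at 15.7 nRPKM, in complex II Sdha at 16.9 and Sdhc at 15.4, and in complex III Uqcr10 at 12.97 and Uqcrc2 at 12.6. The lowest were Ndufs5 at 0.394, Atp5g1 at 0.404, Cox6b2 at 0.409 and Atp5l at 0.420 nRPKM, while the lowest of complexes II and III were Sdhb at 7.72 and Uqcrb at 2.75 nRPKM. Cox6a2, at 3.68 nRPKM, ranked 59 among the 90 members.

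The deposited counts hold uniquely aligned reads, and many members have processed pseudogenes that copy their sequence. Of 88 members with a transcript in GENCODE M21, 49 shared at least one 50-base window with another gene, 36 with a pseudogene, and 17 shared over 20% of their windows. The median nRPKM was 2.66 for those 17 and 6.84 for the other 71. Atp5l, a membrane subunit of complex V, shared 84.8% of its windows, also with 12 pseudogenes. Atp5o, which joins the stator stalk to the catalytic head, shared 47.6%, and the complex III subunit Uqcrb shared 43.4%. The levels of such members are uncertain for this reason. Atp5o nevertheless had 7.06 nRPKM, while Cox6b2 and Ndufaf5, both at 0%, had 0.409 and 0.917 nRPKM. Whether shared sequence lowered the levels was not tested.

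**Figure D3:**
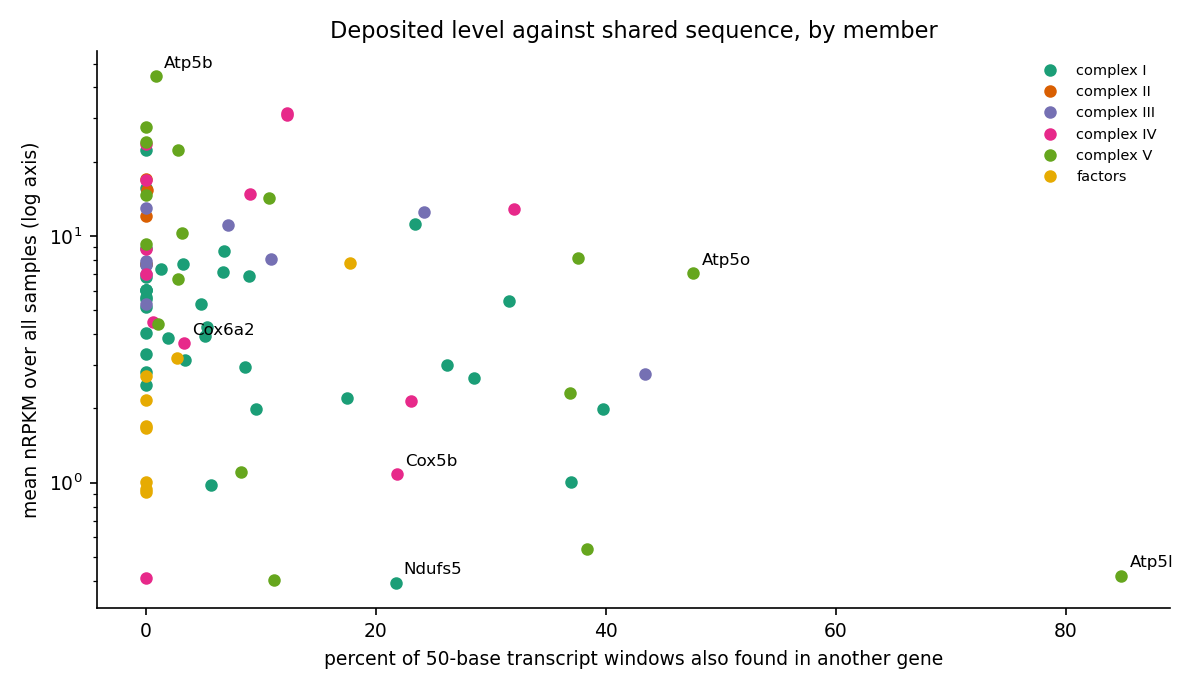
Mean nRPKM over all 15 samples (log axis) against the percent of 50-base transcript windows also found in another gene, for 88 members coloured by complex. Atp5l at the far right shares 84.8% of its windows and lies near the bottom at 0.420 nRPKM, while Atp5b at the top left has 44.5 nRPKM.

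The samples of 14 and 15 months were compared because age is the other variable in the labels. No member was called for age, and none of the 13994 genes was (0%), with 3 members against 7.95% of all genes at an unadjusted edgeR p under 0.05. No member was called for the genotype by age interaction, nor was any gene (0%). At an unadjusted edgeR p under 0.05 there were 12 members (14.1% of 85), against 7.42% of all genes, or 1038. This count hung on single samples. With 1 sample left out it ran from 4, without non-Tg sample 5, to 18, without non-Tg sample 12. DESeq2 called no member either.

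The direction of these uncalled interaction estimates leaned one way. All members were measured in the same samples, so their estimates are not independent and the shares below are description only. The estimate was below 0, a genotype difference smaller or more negative at 15 months, for 71 of 85 members (83.5%), against 51.4% of all genes. Its median was -0.51 over the members, against -0.02 over all genes, and by complex it was -0.50 for I, -0.31 for II, -0.28 for III, -0.65 for IV and -0.81 for V. At 14 months alone 72 of 84 members had an estimate above 0, against 52.2% of all genes, with a median of 0.25 against 0.03 for all genes. At 15 months alone 63 of 85 members were below 0, with a median of -0.17 against -0.04 for all genes. Most genes were likewise below 0 at 15 months, since 46.6% were above it. The smallest interaction p was that of Ndufv1, which encodes the NADH-binding subunit of complex I (-1.62, edgeR adjusted p = 0.612). Ndufv1 had 17.0 to 23.9 CPM in the 4 PS2APP samples and 5.82 and 11.1 CPM in the non-Tg samples of 14 months. At 15 months it had 14.1 to 26.3 CPM in the 5 PS2APP samples and 22.4 to 31.0 CPM in the 4 non-Tg samples, so the ranges overlapped.

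Averaged over the tested members, log2 CPM was 4.11 to 4.63 in the PS2APP samples and 3.98 and 3.99 in the non-Tg samples of 14 months. At 15 months it was 3.91 to 4.40 in PS2APP samples and 4.13 to 4.57 in non-Tg samples, with overlap. The 14-month comparison thus rested on 2 non-Tg samples, of which sample 5 had the fewest reads of all and sample 13 was among those high in immediate early genes and low in Xist. Genes of cytosolic ribosomal proteins leaned the same way, with 59 of 73 interaction estimates below 0 and a median of -0.43. PS2APP sample 8 and non-Tg sample 11 ranked first and second in the mean level of the members and of the ribosomal genes alike. The part of the ribosomal genes in the age pattern was not tested, nor was that of these libraries left out together. With 1 sample left out at a time the median interaction of the members stayed between -0.65 and -0.40. The number of members below 0 was then 63 to 75. Without PS2APP sample 8 the median was -0.40, with 63 below 0. Without non-Tg sample 11 it was -0.47, with 67 below 0, and without non-Tg sample 13 it was -0.65, with 64 below 0.

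**Figure D4:**
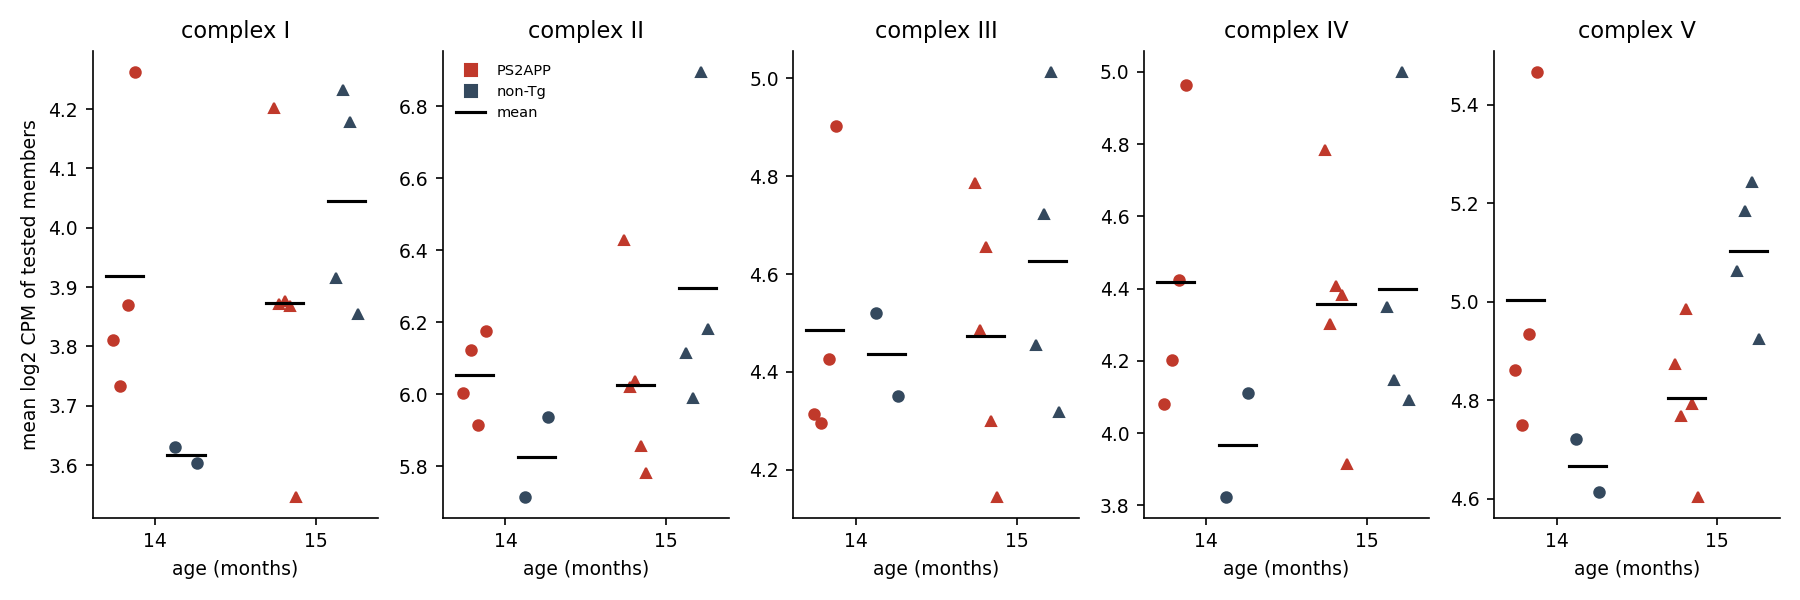
Log2 CPM averaged over the tested members of complexes I to V in each sample, by age, with PS2APP in red left of non-Tg in blue and a bar for the group mean; the vertical axes differ between panels. At 14 months both non-Tg samples lie below all 4 PS2APP samples in complexes I and V, and at 15 months the groups overlap in every complex.

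None of the related lists of mitochondrial genes held a call. Across all genes tested 1.18% were called, so no call in lists this small was at the level of the background. Of the 13 subunits encoded in mitochondrial DNA, 7 had enough reads to be tested and none was called. COX1, the catalytic subunit of complex IV, had 4011 ± 1015 CPM in PS2APP microglia and 4609 ± 2374 CPM in non-Tg microglia (SD, n = 9 and 6; log2 fold change -0.22 ± 0.26 SE). COX2, COX3, ATP6, ATP8, ND3 and ND4L had 24 reads or fewer each over all samples, far below their neighbours in the same genome, so their counts were not read as levels. Among cytochrome c, carriers and channels 0 of 7 were called, among 39 assembly factors outside the symbol rule 0, and among 17 citric acid cycle genes 0. Of 13 transcription factors and coactivators of this gene set none was called. Their estimates included 0.07 ± 0.21 (SE) for Nrf1, 0.22 ± 0.20 for Gabpa and 0.61 ± 0.32 for Esrra.

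Nuclear respiratory factor 1, the product of Nrf1, is known to bind promoters of many respiratory chain genes, so its motif was counted as a property that the symbol rule did not use. RefSeq promoter windows (GRCm38.p6, 250 bases before to 50 after the start) were matched for 75 of the 90 members, Cox6a2 not among them. Its binding consensus, on either strand, was found in 7 of the 75 windows (9.33%), against 1.41% of 27025 genes with a window. A looser form made of its central letters was found in 19 windows (25.3%), against 5.19% of all genes. The ETS motif CCGGAAGT, to which the product of Gabpa binds, was found in 5 (6.67%), against 4.31%, and the YY1 motif AAGATGGCG, also read on both strands, in 8 (10.7%), against 1.64%. The stricter NRF1 form and the length of the YY1 motif were settled after first counts had been seen. The 27025 genes were all those with a window and were not limited to protein-coding genes or to genes tested here, while every member is protein-coding. No comparison with a like set of genes was made. A match describes the letters of the window and was not read as a bound site.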

How the data were processed

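RNA from Cx3cr1-GFP-positive cells of 15 cortex samples was sequenced. The submitters' processing notes name the aligner GSNAP and the build GRCm38. The aligner's version, the annotation, the library kit and whether it kept the strand were not given in the sources used here. Per the file headers, the authors deposited for each gene the count of uniquely aligned reads and nRPKM, an RPKM adjusted by a size factor per sample. Gene IDs were named from RefSeq (GRCm38.p6), which matched 31049 of 36528 IDs holding 97.2% to 98.2% of the reads.

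A quasi-likelihood model of age and genotype was fitted to the counts of 13994 genes that passed filterByExpr, with TMM scaling (edgeR 4.0.16, R 4.3.3), and p-values were adjusted by Benjamini-Hochberg. Levels are CPM of TMM-scaled libraries; mean log2 CPM used a prior count of 2. Standard errors come from the F statistic. The interaction was fitted with a further term. Isoform shares used nRPKM and exact permutation tests over 5005 splits. The edgeR fit of genotype was tested on simulated counts, while the interaction and the share tests were not. Over 51 pairs of samples within a group, the chi-square per degree of freedom was 10.9 to 74.5, so no sample was counted as a copy of another. Counting floors cover counting error only.

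Alternatives were DESeq2 1.42.0, limma 3.58.1 (voom with quality weights, and trend on log2(nRPKM + 1)), other scalings and filters, single ages, covariates, and fits without samples. The members, lists and alternatives were chosen with earlier results of these data known. Members named with values were the tissue isoforms, any called or not overlapping, and in each complex the 3 largest estimates in either direction, the 2 highest and the 1 lowest in nRPKM. Some others, such as Cox7a2l and Ndufv1, were named outside this rule.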

Additional observations from a re-analysis of the deposited data

Results flagged for a closer look

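Single samples stood apart in 22 of 92 groups of values, by a gap to the nearest sample that exceeded the 95% critical value of Dixon's test. For normally distributed values chance gives about 1 in 20 groups, or 4.6 here. Low CPM and shares need not be so distributed, and the members of 1 sample are not independent, so the excess was not read further. Non-Tg sample 11 was the high sample for 9 members. It had 111 CPM for Atp5j, where the other non-Tg samples had 38.5 to 55.1, and 71.9 CPM for Atp5mpl (others 22.2 to 38.3). It had 50.4 CPM for Cox7a2 (others 24.03 to 31.9), 59.7 for Cox7b (others 10.8 to 15.7) and 32.9 for Ndufa1 (others 5.73 to 14.7). It also had 95.1 CPM for Ndufs4 (others 28.5 to 45.2), 130 for Sdhc (others 54.7 to 65.7), 123 for Sdhd (others 42.9 to 64.9) and 11.8 for Uqcrb (others 2.01 to 5.28). It ranked second of 15 samples in the mean level of cytosolic ribosomal genes.

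PS2APP sample 8 was high for Cox4i1 at 162 CPM (others 63.3 to 96.8), Cox6a2 at 34.9 (others 5.94 to 16.7) and Uqcrq at 26.2 (others 12.2 to 16.8). It was also high in the mean log2 CPM of complex V at 5.47 (others 4.604 to 4.99) and in the Cox6a2 share at 24.9% (others 8.85% to 15.9%). Without it the Cox6a2 share difference was 9.34 points and the edgeR log2 fold change of Cox6a2 was 2.27.

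PS2APP sample 15 was high for Cox6b2 at 5.53 CPM (others 0 to 2.04), for its share at 14.4% (others 0% to 3.08%) and for Ndufb3 at 32.3 CPM (others 9.32 to 20.4), and low for Uqcrc2 at 41.1 CPM (others 78.4 to 104). PS2APP sample 1 was high for Ndufb2 at 22.5 CPM (others 2.78 to 12.5) and Sdhb at 56.4 CPM (others 22.04 to 32.1). Non-Tg sample 9 was high in the mean log2 CPM of the factors at 3.68 (others 3.02 to 3.25) and in the Cox6b2 share at 2.99% (others 0% to 1.06%).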

How the results depend on the processing

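The alternatives were fitted for 35 of the members named with values, which gave 996 values. Of these 913 kept the direction and the side of the 0.05 threshold, 9 lost the call, all of them for Cox6a2, and 74 changed sign without being called. The number of members called higher was 0 at 14 months alone, at 15 months alone, with the neuron score, without the 3 libraries low in Xist and without the 4 high in immediate early genes, against 1 otherwise, and 0 to 1 over fits without 1 sample. No alternative called a member lower. Over all genes edgeR called 165, against 390 with DESeq2, 648 without a filter, 13 with the neuron score, 81 without the libraries low in Xist, and 50 and 65 at 14 and 15 months alone. At 14 months alone the median log2 fold change was 0.28, 0.19, 0.15, 0.38 and 0.30 for complexes I to V in that order and 0.25 for all members. At 15 months alone it was -0.16, -0.17, -0.33, -0.11 and -0.27 in the same order and -0.17 for all members. For the factors it lay between -0.0057 and 0.40 over fits without 1 sample. With 1 sample left out the difference in share was -0.61 to -0.17 points for Atp5g1, where the exact permutation p was 0.0465 without non-Tg sample 11, -0.43 to 0.41 points for Atp5g3, 0.077 to 0.94 points for Atp5g2, 0.53 to 2.41 points for Cox6b2 and 9.34 to 11.4 points for Cox6a2. Log2 fold changes of uncalled members that turned at 14 months alone were Atp5b 0.29, Atp5g3 0.35, Atp5j 0.22, Atp5pb 0.076, Cox7a2 0.015, Cox7b 0.45, Ndufa4 0.057, Ndufa8 0.46, Ndufb9 0.62, Ndufc2 0.19, Sdha 0.092, Sdhb 0.27, Sdhd 0.48, Uqcrb -0.10, Uqcrc1 0.49, Uqcrc2 0.098 and Uqcrfs1 -0.21. At 15 months alone they were Atp5k -0.014, Atp5mpl -0.23, Cox4i1 -0.13 and Sdhc -0.049. With the neuron score they were Atp5j2 -0.31, Atp5mpl -0.38, Cox4i1 -0.43, Ndufa3 -0.56, Ndufb2 -0.28, Ndufb3 -0.085, Ndufc2 0.084, Sdha 0.18, Sdhb 0.047, Sdhc -0.27, Uqcrfs1 -0.38 and Uqcrq -0.20. Without the libraries low in Xist they were Atp5j2 -0.18, Cox4i1 -0.015, Sdhb 0.26 and Sdhc -0.033, and without those high in immediate early genes Atp5b 0.044, Atp5mpl -0.011, Cox6c -0.0011 and Sdhc -0.30. With limma-voom they were Atp5b 0.037, Cox7b 0.037 and Sdha 0.032, and with limma-trend on nRPKM Sdhb 0.0061 and Sdhc -0.012. Sdhb 0.0043 turned with a filter of 30 reads, Sdhb 0.0056 without a filter and Sdhb 0.026 without scaling. Sdhc -0.0024 turned with DESeq2, Sdhc -0.0023 with size factors, Sdhc -0.017 without age and Sdhc -0.051 with the ribosomal score. Without 1 sample the range was -0.0085 to 0.39 for Atp5mpl, -0.024 to 0.22 for Cox4i1, -0.59 to 0.16 for Cox7b, -0.16 to 0.058 for Sdha, -0.17 to 0.096 for Sdhb, -0.19 to 0.23 for Sdhc and -0.017 to 0.20 for Uqcrfs1. The cause of these changes was not tested. No paired analysis was possible because the numbers in the labels are sample numbers and no number occurs in both groups. Depth limits Cox6a2, with 82 reads over the non-Tg samples, and the 5 members left untested.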

Other observations

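Among markers of other cells in the sort, those of the astrocyte and vessel lists held calls in both directions, and the choroid plexus list held 2, both lower. In PS2APP microglia Gfap, the astrocyte filament protein, had 15.4 ± 6.79 CPM, against 3.66 ± 1.72 CPM in non-Tg microglia (SD, n = 9 and 6; edgeR log2 fold change 2.08, adjusted p = 0.0120). Slc1a2, the glial glutamate transporter, had 244 ± 65.1 CPM in PS2APP microglia and 492 ± 213 CPM in non-Tg microglia (edgeR log2 fold change -1.01, adjusted p = 0.0202). Flt1, a receptor of vascular endothelial growth factor, was called higher (2.27) and Pecam1 lower (-1.21). Ttr (-3.40) and Enpp2 (-2.51), which the choroid plexus expresses strongly, were called lower. Summed CPM of the choroid plexus list was 4.46 to 32.3 in PS2APP samples and 1.11 to 407 in non-Tg samples, with overlap. The part of these markers in the levels of the oxidative phosphorylation genes was not tested.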
